A study of Mus musculus with 8 samples.

Results

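The Cyp2c genes encode cytochrome P450 enzymes of the liver endoplasmic reticulum, and in the mouse most of them lie side by side on chromosome 19. The 10 genes described here were Cyp2c29, Cyp2c37, Cyp2c38, Cyp2c39, Cyp2c50, Cyp2c54, Cyp2c55, Cyp2c67, Cyp2c68 and Cyp2c70. They were taken by symbol from 52636 counted genes, and all 10 were found and passed the low-count filter. The genes were selected on the AAV8-AGXT against AAV8-GFP fold changes of these same libraries, so their group differences are a description. Where a gene is said to have passed the threshold of the fit over all genes, this labels the gene and is no independent test of it. Expression was measured in the livers of 8 male C57BL/6J mice, 4 given AAV8-GFP and 4 given AAV8-AGXT, in 1 library per mouse. AAV8 is an adeno-associated virus that reaches the liver, and it carried GFP or human AGXT, which makes glycine from glyoxylate, under the TBG promoter, which is active in hepatocytes. Both groups received virus at 7 weeks of age and then, from 8 weeks of age, 24 weeks of a diet rich in fat, fructose and cholesterol that causes metabolic dysfunction-associated steatohepatitis (MASH). No mouse on a control diet or without virus entered the comparison, so each value below compares 2 virus-treated MASH groups. Mice 303, 311, 314 and 315 received AAV8-GFP, and mice 308, 309, 316 and 319 received AAV8-AGXT.

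P450 enzymes of the Cyp2c family take electrons from cytochrome P450 reductase and insert an oxygen atom into fatty acids, steroids, retinoids, bile acids and drugs. Several mouse members turn arachidonic acid into epoxides, which soluble epoxide hydrolase, encoded by Ephx2, then opens to diols. The nuclear receptors CAR and PXR, the hepatocyte factors HNF4A and C/EBP alpha, and the sex-dependent pattern of growth hormone are known to act on Cyp2c transcription in liver, and several members are expressed mainly by pericentral hepatocytes.

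The cluster lies on GRCm38 chromosome 19, where the 10 genes run from base 39007019 to base 40187333, a span of 1180 kb, with members on both strands. Between them and beside them lie Cyp2c52-ps, Cyp2c65, Cyp2c66, Cyp2c53-ps, Cyp2c40 and Cyp2c69, and a further relative, Cyp2c23, lies apart from the cluster on the same chromosome. In aligned coding sequence the cluster falls into subgroups that follow its order along the chromosome. Cyp2c37 was 96.1% identical to Cyp2c50 and 95.1% identical to Cyp2c54. Cyp2c38 was 94.2% identical to Cyp2c39, and Cyp2c29 was 89.5% identical to Cyp2c39. Cyp2c67 and Cyp2c68 shared 97.2% of aligned bases and were at least as close to Cyp2c40, with 97.7% and 98.1%. Cyp2c55 and Cyp2c70 stood further off, since their nearest relatives among the aligned genes shared 77.4% and 68.7%.

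**Figure D1:**
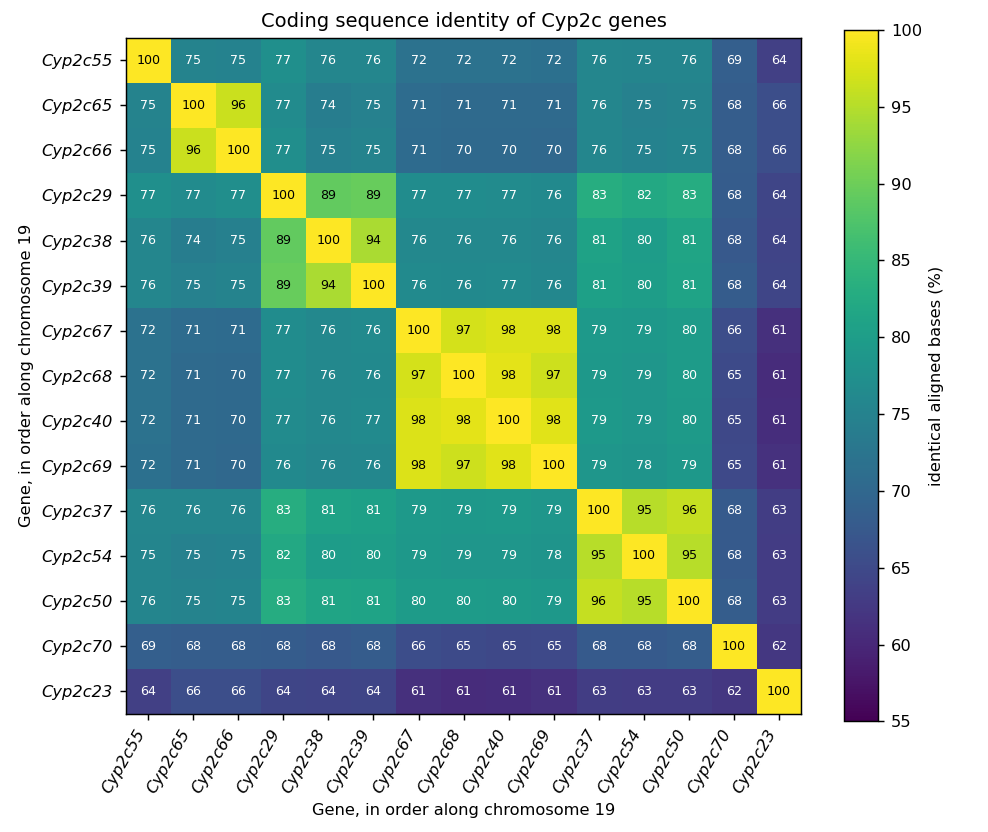
Identical bases, in percent of aligned bases, between the coding sequences of 15 Cyp2c genes in chromosomal order, each cell being 1 pair. The bright blocks hold Cyp2c65 with Cyp2c66, Cyp2c29 with Cyp2c38 and Cyp2c39, Cyp2c67 and Cyp2c68 with Cyp2c40 and Cyp2c69, and Cyp2c37 with Cyp2c54 and Cyp2c50, while Cyp2c70 and Cyp2c23 are dim throughout.

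The sequences just before the transcription start are shown for 3 pairs of close relatives, which were picked with their fold changes known. These are not always the nearest relatives by this sequence. Cyp2c39, not shown, was the nearest to Cyp2c29 (81.5% identical) and to Cyp2c38 (87.8%). Whether these sequences bear on the expression differences was not tested. Each sequence shown is the 250 bases before the RefSeq start on GRCm38.p6, read 5′ to 3′ on the strand of the gene, with matches to any of 7 searched motifs in capitals. The first pair is Cyp2c37 (chr19:39992174-39992423, plus strand) and Cyp2c50 (chr19:40089429-40089678, plus strand), which were 89.8% identical over the aligned bases and were both higher in all 4 AAV8-AGXT mice.
Cyp2c37: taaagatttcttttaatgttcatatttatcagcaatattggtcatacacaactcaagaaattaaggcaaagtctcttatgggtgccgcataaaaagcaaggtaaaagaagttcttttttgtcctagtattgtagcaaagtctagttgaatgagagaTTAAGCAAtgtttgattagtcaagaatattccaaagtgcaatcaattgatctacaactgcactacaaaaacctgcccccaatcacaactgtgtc
Cyp2c50: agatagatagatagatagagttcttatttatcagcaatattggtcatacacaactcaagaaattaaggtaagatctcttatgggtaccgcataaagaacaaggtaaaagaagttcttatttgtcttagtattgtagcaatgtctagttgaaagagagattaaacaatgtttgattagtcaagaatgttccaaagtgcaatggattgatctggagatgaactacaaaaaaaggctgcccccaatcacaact
The second pair is Cyp2c67 (chr19:39649043-39649292, minus strand) and Cyp2c68 (chr19:39741102-39741351, minus strand), which were 90.1% identical and showed smaller differences in the same direction.
Cyp2c67: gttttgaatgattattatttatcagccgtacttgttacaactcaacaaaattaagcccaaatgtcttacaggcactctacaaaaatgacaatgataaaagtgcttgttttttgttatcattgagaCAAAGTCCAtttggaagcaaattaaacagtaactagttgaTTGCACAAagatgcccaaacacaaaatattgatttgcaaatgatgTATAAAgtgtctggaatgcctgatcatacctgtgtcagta
Cyp2c68: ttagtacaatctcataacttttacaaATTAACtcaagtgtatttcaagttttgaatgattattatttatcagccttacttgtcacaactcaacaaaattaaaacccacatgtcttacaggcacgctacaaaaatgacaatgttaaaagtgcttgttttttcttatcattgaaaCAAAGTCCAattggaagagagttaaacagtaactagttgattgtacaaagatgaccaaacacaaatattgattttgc
The third pair is Cyp2c29 (chr19:39286835-39287084, plus strand) and Cyp2c38 (chr19:39463076-39463325, minus strand), which were 79.0% identical and whose expression differed, with Cyp2c29 higher in AAV8-AGXT mice and Cyp2c38 overlapping between the groups. The Cyp2c29 window lies inside a longer gene model of GENCODE that starts upstream.
Cyp2c29: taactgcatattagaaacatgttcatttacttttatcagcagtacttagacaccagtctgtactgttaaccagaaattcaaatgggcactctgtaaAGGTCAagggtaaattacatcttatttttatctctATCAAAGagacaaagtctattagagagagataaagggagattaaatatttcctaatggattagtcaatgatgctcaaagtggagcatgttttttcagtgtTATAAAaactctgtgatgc
Cyp2c38: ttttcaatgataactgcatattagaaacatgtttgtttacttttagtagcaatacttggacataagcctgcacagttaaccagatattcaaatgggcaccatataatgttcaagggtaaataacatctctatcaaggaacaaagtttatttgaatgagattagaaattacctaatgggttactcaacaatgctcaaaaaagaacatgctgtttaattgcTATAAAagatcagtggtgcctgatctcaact

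Windows of this length were found for 9 of the 10 genes, with none for Cyp2c54. CAAAGTCCA, the letters of a direct repeat that HNF4A binds, occurred in 3 of the 9 windows, those of Cyp2c67, Cyp2c68 and Cyp2c70, against 0.384% of all 32851 mouse promoter windows. The TATA motif TATAAA occurred in 5 of 9 (Cyp2c29, Cyp2c38, Cyp2c55, Cyp2c67 and Cyp2c70) against 12.4%. ATCAAAG, a TCF/LEF-type motif, occurred in 2 of 9, those of Cyp2c29 and Cyp2c39, against 3.21%. The nuclear receptor half-site AGGTCA occurred in 2 of 9 (Cyp2c29 and Cyp2c70) against 14%, and the C/EBP-type motif TTGCNNAA in 2 of 9 (Cyp2c37 and Cyp2c67) against 9.56%. GTTAAT, an HNF1 half-site, occurred in 1 of 9 (Cyp2c68) against 6.43%, and the STAT-type motif TTCNNNGAA in 0 of 9 against 7.02%. Both strands were searched, and close relatives share sequence, so their matches are not separate observations. The Cyp2c50 window held no match to any of the 7 motifs.

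Libraries held between 17095433 and 28780140 read pairs counted on genes. Mouse 308 had the smallest share of all tallied entries on genes, 56.3%, against at least 62.4% in the other mice. Expression is given as CPM, the counts scaled to library size with TMM factors. Mouse Agxt stood at 163.6 ± 15.7 CPM with AAV8-GFP and at 304.9 ± 98.2 CPM with AAV8-AGXT (SD, n = 4 each), and whether reads of the human transgene were among these counts is not known. Alb, which marks hepatocytes, had between 25900 and 43340 CPM in every library. Of 15248 genes tested by the quasi-likelihood test of edgeR, with Benjamini-Hochberg adjustment over these genes, 374 were called higher and 290 lower in AAV8-AGXT mice at an adjusted p under 0.05. Log2 fold changes below are AAV8-AGXT over AAV8-GFP from this fit, with standard errors derived from its test statistic.

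Of the 10 genes, Cyp2c37, Cyp2c54, Cyp2c50 and Cyp2c68 passed this threshold as higher, where 2.45% of all tested genes did. None passed it as lower, where 1.9% of all tested genes did, with 1 of the 10, Cyp2c55, at an unadjusted p under 0.05 in that direction; DESeq2 also called Cyp2c55 lower and limma-voom called 0. In 6 genes, the same 4 with Cyp2c29 and Cyp2c67, every AAV8-AGXT mouse lay above every AAV8-GFP mouse, a pattern that 8.93% of all tested genes showed. In Cyp2c55 alone of the 10, every AAV8-AGXT mouse lay below every AAV8-GFP mouse, which 7.63% of tested genes showed. Because the genes were chosen with this contrast known, nothing is read from these shares. The median log2 fold change of the 10 genes was 0.60 and that of all tested genes was 0.02. The calls of these 4 genes were lost without mouse 311, when 0 of the 10 genes passed. This loss was general, since that fit called only 2 genes higher and 0 lower among all genes tested. With any mouse left out, the log2 fold change of Cyp2c37 stayed between 1.98 and 2.43, and that of Cyp2c50 between 1.23 and 1.43.

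**Figure D2:**
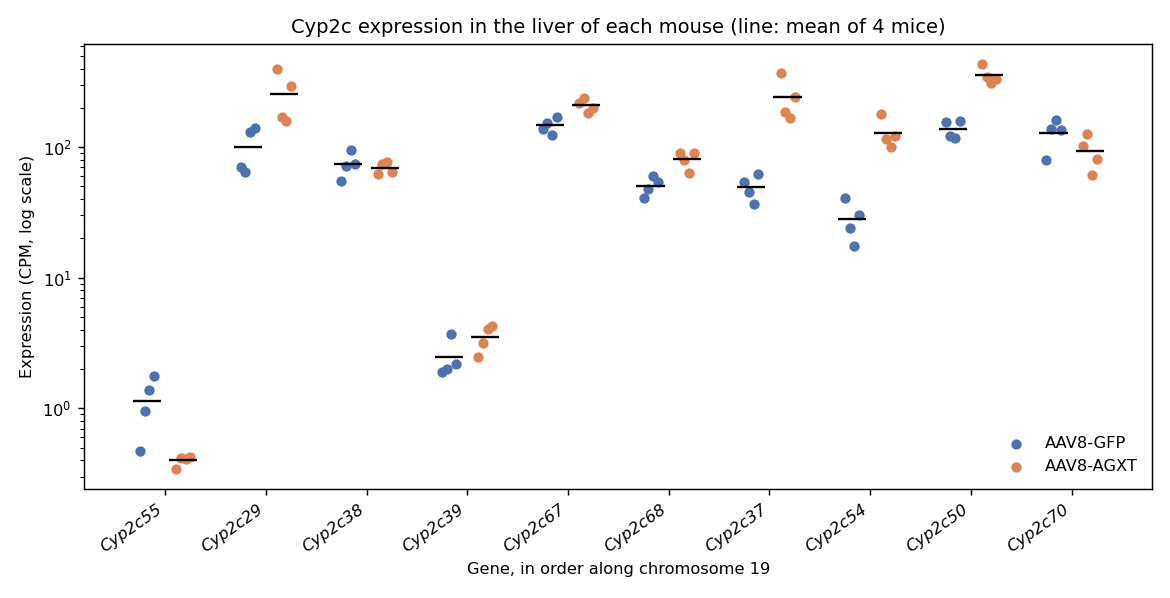
Expression of each gene in each mouse, as TMM-scaled CPM on a log axis, with 4 AAV8-GFP mice in blue, 4 AAV8-AGXT mice in orange and the group mean as a line. The orange points lie wholly above the blue ones for Cyp2c29, Cyp2c67, Cyp2c68, Cyp2c37, Cyp2c54 and Cyp2c50, and wholly below them for Cyp2c55.

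Cyp2c37, Cyp2c54 and Cyp2c50, 3 neighbours at the far end of the cluster, had the highest log2 fold changes of the 10 genes with all 8 mice, and Cyp2c29 passed Cyp2c50 in this order when mouse 314, 315, 309 or 316 was left out. Cyp2c37, which hydroxylates arachidonic acid, had 54.5, 45.5, 36.4 and 62.2 CPM in AAV8-GFP mice 303, 311, 314 and 315. In AAV8-AGXT mice 308, 309, 316 and 319 it had 372, 185, 166 and 243 CPM. The lowest AAV8-AGXT mouse lay above every AAV8-GFP mouse, and mouse 308 was the highest of all. The means were 49.7 ± 11.1 and 241.7 ± 93.2 CPM (SD, n = 4 each), a 4.87-fold ratio of the means, or 2.28 in log2 terms from the fit (standard error 0.27).

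Cyp2c54, an arachidonic acid epoxygenase on the opposite strand between Cyp2c37 and Cyp2c50, had 40.9, 23.9, 17.5 and 30.2 CPM in the AAV8-GFP mice. It had 178.7, 115.8, 100.5 and 120.9 CPM in the AAV8-AGXT mice, again with no overlap and with mouse 308 highest. The means were 28.1 ± 9.96 and 129.0 ± 34.3 CPM (SD, n = 4 each), and the log2 fold change was 2.20 (standard error 0.27). Cyp2c50, also an epoxygenase, started from a higher level, with 157.0, 122.1, 117.5 and 157.5 CPM in the AAV8-GFP mice. It had 432, 344, 312 and 331 CPM in the AAV8-AGXT mice. The groups were well apart, and the log2 fold change was 1.36 (standard error 0.16).

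These 3 genes share sequence, so part of each transcript cannot be told from its relatives. Of the 67-base words in its transcripts, the read length left after trimming, Cyp2c37 had 82.0% that occurred in no other annotated gene, Cyp2c54 had 82.7% and Cyp2c50 had 87.5%. Cyp2c37 shared 12.5% of its words with Cyp2c50 and 8.19% with Cyp2c54. Read pairs that aligned at several places were tallied apart from genes, and made up 17.4% to 20.6% of the tallied pairs in AAV8-GFP mice and 19.5% to 23.4% in AAV8-AGXT mice. Their part in the group differences was not tested.

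**Figure D3:**
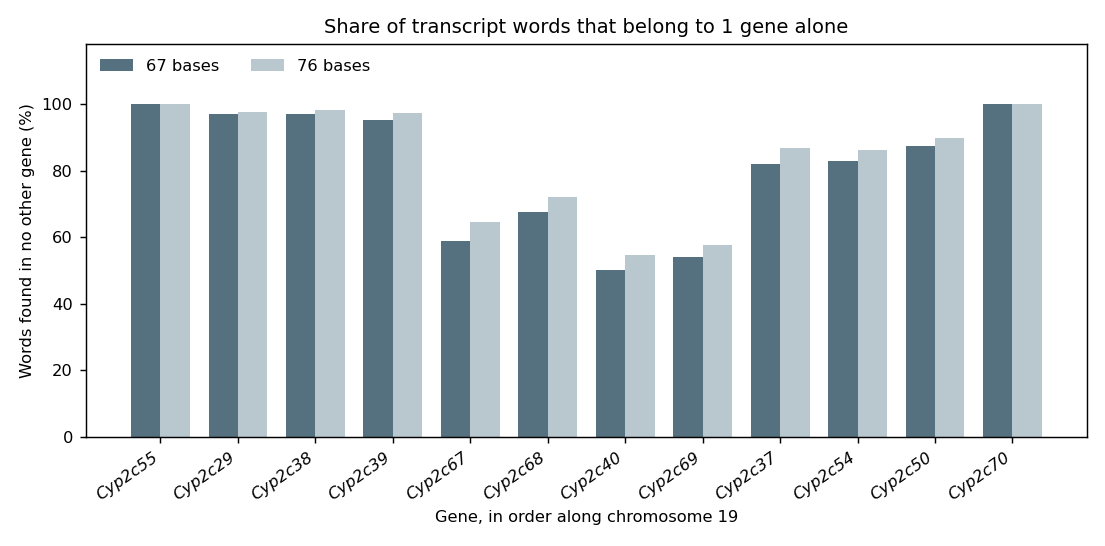
Share of the words of each gene's annotated transcripts that occur in no other gene, in percent, for words of 67 bases (dark bars) and 76 bases (light bars), with genes in chromosomal order. Cyp2c55 and Cyp2c70 reach 100%, the Cyp2c37, Cyp2c54 and Cyp2c50 group lies between 82.0% and 89.9%, and Cyp2c67, Cyp2c68, Cyp2c40 and Cyp2c69 lie lowest, between 50.1% and 71.9%.

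Cyp2c29, Cyp2c38 and Cyp2c39 form the second sequence group. Cyp2c29, an arachidonic acid epoxygenase known to be induced through CAR, had 70.4, 64.4, 130 and 139 CPM in AAV8-GFP mice 303, 311, 314 and 315. In AAV8-AGXT mice 308, 309, 316 and 319 it had 394, 169, 159 and 294 CPM. The groups did not overlap, but each one was split, with mice 314 and 315 well above 303 and 311, and mice 308 and 319 above 309 and 316. The means were 101.1 ± 39.2 and 254.1 ± 112.0 CPM (SD, n = 4 each) and the log2 fold change was 1.33 (standard error 0.35), which did not pass the threshold over all genes with edgeR and passed it with DESeq2. Part of the exon sequence of Cyp2c29, 4.64%, is overlapped by Cyp2c53-ps on the same strand, and Cyp2c53-ps itself had 0 counts in 7 mice and 4 counts in mouse 308.

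Cyp2c38, another epoxygenase of arachidonic acid, had 54.7, 71.8, 95.8 and 74.4 CPM in the AAV8-GFP mice and 62.8, 74.0, 77.4 and 64.5 CPM in the AAV8-AGXT mice. All 4 AAV8-AGXT values fell inside the AAV8-GFP range, and the log2 fold change was -0.09 (standard error 0.16), changing sign when mouse 314 was left out. Cyp2c39, which can oxidise retinoic acid, was scarce, with 36 to 90 counts per library. It had 1.91, 2.02, 3.69 and 2.20 CPM in the AAV8-GFP mice and 2.48, 3.18, 4.05 and 4.24 CPM in the AAV8-AGXT mice, so mouse 314 overlapped the AAV8-AGXT range. The log2 difference was 0.52 (standard error 0.27). Reads of this group can mostly be told apart, with 97.0%, 97.0% and 95.0% of 67-base words found in no other gene for Cyp2c29, Cyp2c38 and Cyp2c39.

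Cyp2c67 and Cyp2c68, whose substrates are less well known, had modest differences. Cyp2c67 had 139, 154, 125 and 170 CPM in the AAV8-GFP mice and 219, 238, 181 and 199 CPM in the AAV8-AGXT mice, without overlap. The means were 146.9 ± 19.4 and 209.1 ± 24.5 CPM (SD, n = 4 each), with a log2 fold change of 0.51 (standard error 0.13). Cyp2c68 had 41.0, 47.4, 59.7 and 54.3 CPM in the AAV8-GFP mice and 90.2, 80.4, 63.6 and 90.8 CPM in the AAV8-AGXT mice. The groups came close, since mouse 316 at 63.6 CPM stood just above mouse 314 at 59.7 CPM, and the log2 fold change was 0.68 (standard error 0.15). The call of Cyp2c68 was lost in 7 of the 8 fits that left out a mouse and when libraries were scaled by total counts.

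Only 58.9% of the 67-base words of Cyp2c67 and 67.6% of those of Cyp2c68 occurred in no other gene. Cyp2c67 shared 29.2% of its words with Cyp2c40 and Cyp2c68 shared 26.4% with it. Cyp2c40, which hydroxylates arachidonic acid, was far scarcer, with means of 0.93 ± 0.44 CPM for AAV8-GFP and 4.61 ± 2.75 CPM for AAV8-AGXT (SD, n = 4 each). edgeR gave it a log2 fold change of 2.30 with a standard error of 0.48 and an adjusted p of 0.0376, and 4 of 4 AAV8-AGXT mice lay above every AAV8-GFP mouse. Its call held in 2 of the 8 fits that left out a mouse. Cyp2c69 had 14, 7, 0 and 10 counts in the AAV8-GFP mice and 124, 15, 12 and 76 in the AAV8-AGXT mice, a pattern with an adjusted p of 0.0657 in edgeR. Because these 4 genes share so much sequence, the separate values of each are uncertain.

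Cyp2c70 and Cyp2c55 are the members most distant in sequence, and 100% of their words belonged to no other gene. Cyp2c70, which hydroxylates bile acids and makes the muricholic acids of rodents, had 79.4, 139, 163 and 136 CPM in AAV8-GFP mice. It had 102, 127, 61.0 and 81.5 CPM in the AAV8-AGXT mice. The groups overlapped, and the means were 129.2 ± 35.4 and 92.8 ± 28.2 CPM (SD, n = 4 each), with a log2 fold change of -0.48 (standard error 0.26). Cyp2c55, which oxidises arachidonic acid and is best known from the colon, was the scarcest of the 10. It had 12, 31, 30 and 40 counts in the AAV8-GFP mice and 5, 7, 8 and 9 counts in the AAV8-AGXT mice. In CPM the means were 1.14 ± 0.56 and 0.40 ± 0.04 (SD, n = 4 each), and the log2 fold change was -1.48 (standard error 0.43). Mouse 303, at 0.47 CPM, was the AAV8-GFP mouse nearest to the AAV8-AGXT values, of which the highest was 0.42 CPM.

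**Figure D4:**
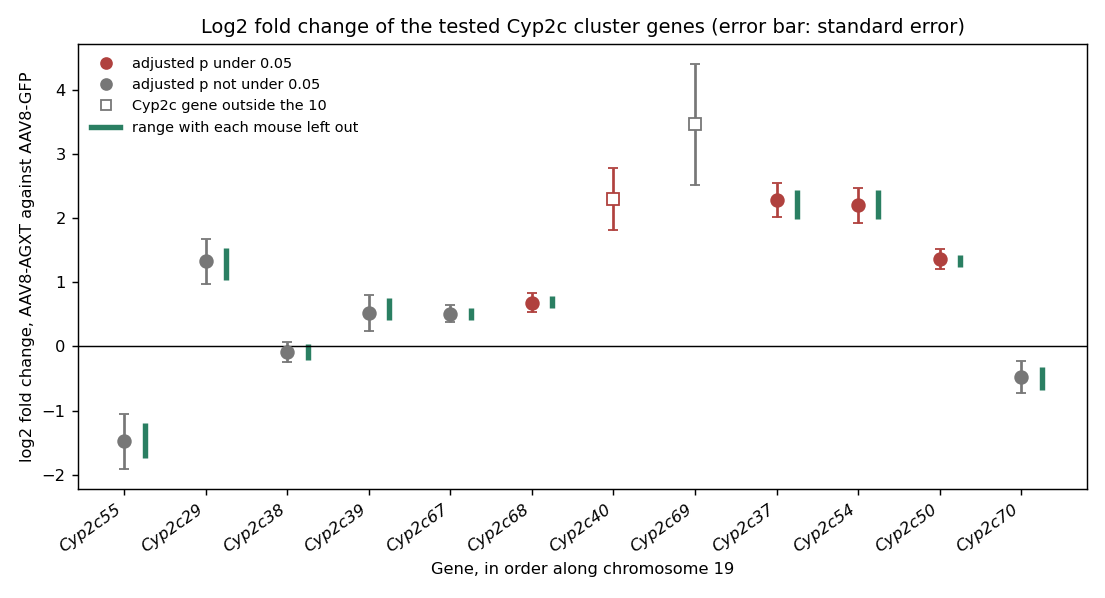
Log2 fold change of each tested Cyp2c cluster gene, AAV8-AGXT over AAV8-GFP, with its standard error, in chromosomal order. Red marks genes that passed the adjusted p threshold over all genes, open squares are Cyp2c genes outside the 10, and green bars give the range for the 10 genes with each mouse left out, which crosses 0 for Cyp2c38 alone.

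Summed over the 10 genes, the AAV8-GFP mice 303, 311, 314 and 315 had 639, 671, 750 and 827 CPM, and the AAV8-AGXT mice 308, 309, 316 and 319 had 1854, 1336, 1125 and 1429 CPM. The group means were 721.8 ± 84.4 and 1436 ± 306 CPM (SD, n = 4 each), a ratio of 1.99. The make-up of this sum differed too. Cyp2c37 held 6.92% of it in AAV8-GFP and 16.4% in AAV8-AGXT mice, and Cyp2c54 held 3.98% and 8.93%. Cyp2c50 went from 19.4% to 24.98%, whereas Cyp2c70 went from 17.8% to 6.53% and Cyp2c38 from 10.3% to 5.08%. The share of Cyp2c38 went down while its own level was 74.2 and 69.7 CPM in the groups, since the sum of the 10 genes was larger.

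Per kilobase of exon, Cyp2c67 had the highest level in AAV8-GFP mice, at 84.8 ± 11.2 CPM per kb (SD, n = 4), followed by Cyp2c70 at 65.2 ± 17.8 and Cyp2c50 at 47.5 ± 7.44. Cyp2c29, Cyp2c68, Cyp2c37 and Cyp2c38 followed between 33.0 and 25.9 CPM per kb, then Cyp2c54 at 15.7, Cyp2c39 at 1.35 and Cyp2c55 at 0.57. Each neighbour in this order overlapped the next over the 4 mice, down to Cyp2c54, which did not overlap Cyp2c39, nor did Cyp2c39 overlap Cyp2c55. In AAV8-AGXT mice, Cyp2c37 at 132.5 ± 51.1, Cyp2c50 at 121.5 ± 18.3 and Cyp2c67 at 120.7 ± 14.1 CPM per kb led and overlapped one another. Cyp2c29 at 83.0, Cyp2c54 at 72.2, Cyp2c68 at 47.1, Cyp2c70 at 46.8 and Cyp2c38 at 24.3 CPM per kb came next, and Cyp2c39 and Cyp2c55 were again last. Neighbours that did not overlap in this order were Cyp2c54 and Cyp2c68, Cyp2c70 and Cyp2c38, Cyp2c38 and Cyp2c39, and Cyp2c39 and Cyp2c55. Counted per 1000 words found in no other gene, a scale chosen after seeing the data, Cyp2c67 had the highest mean in both groups, at 149.6 CPM with AAV8-GFP and 212.9 CPM with AAV8-AGXT. With AAV8-GFP it did not overlap the next gene, Cyp2c70. With AAV8-AGXT it overlapped Cyp2c37 and lay above it in 3 of 4 mice.

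Mice within a group also differed. As deviations of log2 CPM from the group mean, Cyp2c37 was at 0.70 and Cyp2c54 at 0.51 in mouse 308, and at -0.47 and -0.33 in mouse 316. In mouse 314 they were at -0.42 and -0.61. By the root mean square distance between such deviations over the 8 mice, Cyp2c37 and Cyp2c54 were each other's nearest member, at 0.22 on the log2 scale. Ordered by this distance among 15247 genes, Cyp2c54 came at place 227 for Cyp2c37, and Cyp2c37 at place 115 for Cyp2c54, so many other genes lay nearer. Among all 15247 other tested genes, the one nearest to Cyp2c37 was Sema5b at 0.12, to Cyp2c54 Gm36936 at 0.07 and to Cyp2c50 Acyp1 at 0.04. For Cyp2c38 it was Smg1, for Cyp2c39 Fam110c, for Cyp2c67 Zscan20, for Cyp2c68 Mrm2, for Cyp2c70 Chd9 and for Cyp2c55 Nr1d2. The distance to the nearest of so many genes over 8 mice is small by construction and describes these libraries only.

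**Figure D5:**
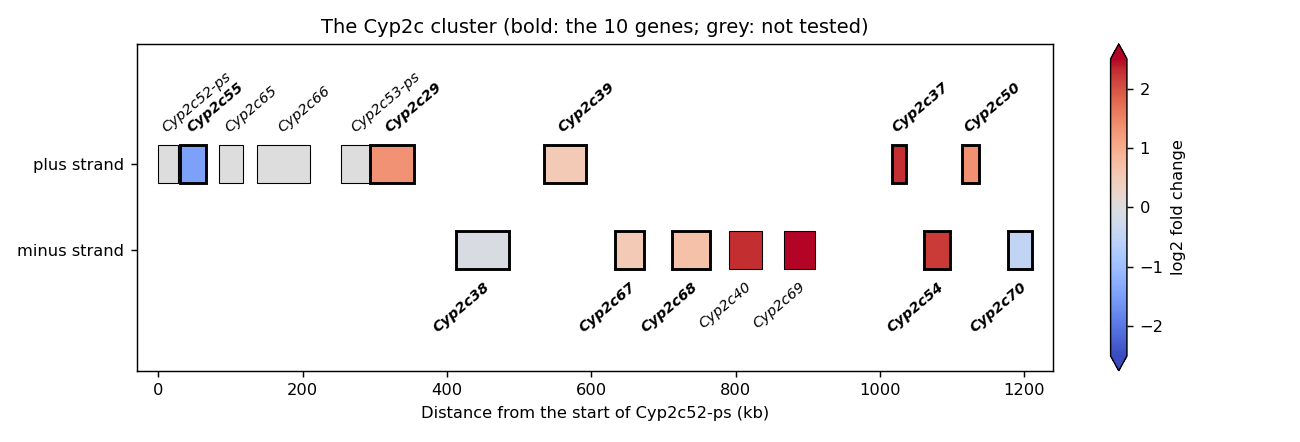
Map of the Cyp2c cluster in kilobases from the start of Cyp2c52-ps, with genes of the plus strand above and of the minus strand below, to scale and coloured by log2 fold change. The 10 genes are outlined and in bold, and the red boxes of Cyp2c37 and Cyp2c54 and the paler red of Cyp2c50 lie beside the pale blue of Cyp2c70 at the right end.

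Other genes of the locus were set beside the 10. Of the 7 other Cyp2c genes of chromosome 19 found in the counts, 3 could be tested and Cyp2c40 was called higher. Cyp2c23, 5028 kb from the start of Cyp2c52-ps, had 179.4 ± 45.7 and 212.6 ± 22.95 CPM (SD, n = 4 each), with overlapping groups and a log2 fold change of 0.25 (adjusted p = 0.391, edgeR). Cyp2c52-ps, Cyp2c53-ps and Cyp2c65 had at most 6 counts in any library, and Cyp2c66 had 0 in all 8. Of 18 genes that are not Cyp2c within 500 kb of the outermost members, 10 were tested and 0 were called by edgeR, 2 had an unadjusted p under 0.05, and DESeq2 called 1, while limma-voom called 0. Their median log2 fold change was -0.17.

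The partner enzymes were taken from gene lists. In this and later lists, counts at an unadjusted p under 0.05 and calls by DESeq2 have no share of all genes beside them. Nothing about a list is read from these counts. Over all genes, DESeq2 called 1068 higher and 1034 lower. Por, the reductase that supplies electrons to every microsomal P450, was the called gene among 4 electron donors, at 266, 232, 299 and 218 CPM in the AAV8-GFP mice and 736, 418, 601 and 772 CPM in the AAV8-AGXT mice. In log2 terms it was higher by 1.32 with a standard error of 0.20 (adjusted p = 0.0246, edgeR). At an unadjusted p under 0.05, 1 of the 4 donors was higher and 1 lower. The lower one was Cyb5r3, with a log2 fold change of -0.33 and overlapping groups. DESeq2 and limma-voom each called 1 donor higher and 0 lower. Of both epoxide hydrolases, Ephx2 was called higher, with a log2 fold change of 0.82 (adjusted p = 0.0465, edgeR), and Ephx1 was not called. Of 3 tested Cyp2j epoxygenases, the other epoxygenase family of mouse liver, 0 were called by edgeR, 1 had an unadjusted p under 0.05, DESeq2 called 1 and limma-voom 0. Of 4 tested genes of the cyclooxygenase and lipoxygenase pathways, 0 were called by edgeR, 1 had an unadjusted p under 0.05, DESeq2 called 1 and limma-voom 0.

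Among 14 regulators of Cyp2c genes, Cebpa, which encodes C/EBP alpha, was called higher, at 352.2 ± 16.8 and 498.8 ± 39.1 CPM (SD, n = 4 each), higher by 0.50 on the log2 scale (adjusted p = 0.0429, edgeR). At an unadjusted p under 0.05, 5 of the 14 were higher and 0 lower, and DESeq2 called 4 higher and limma-voom 2. Nr1i3, which encodes CAR, had 49.9, 24.0, 27.5 and 33.3 CPM with AAV8-GFP and 153.5, 42.6, 65.6 and 100.5 CPM with AAV8-AGXT, with mouse 309 below mouse 303. Its log2 fold change of 1.43 did not pass the threshold (adjusted p = 0.0599, edgeR). Of 8 CAR and PXR target genes, Alas1, the first enzyme of haem synthesis, was called higher with a log2 fold change of 1.26, as was Ugt1a1, which conjugates bilirubin, with 0.97 (adjusted p = 0.0366 and 0.0413, edgeR). Cyp2b10, the classical CAR target, was scarce at 0.62 ± 0.39 and 0.25 ± 0.27 CPM (SD, n = 4 each), with overlapping groups. At an unadjusted p under 0.05, 3 of the 8 were higher and 2 lower. The lower ones were Gsta1 and Abcb1a, with log2 fold changes of -2.13 and -0.84 and overlapping groups. DESeq2 called 3 higher and 0 lower, and limma-voom called 2 higher and 0 lower. The median log2 fold change of this list was -0.03.

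Of 7 genes known to be higher in male liver, Hsd3b5 and Cyp7b1 were called higher, with log2 fold changes of 3.74 and 1.71 (adjusted p = 0.0341 and 0.0425, edgeR). At an unadjusted p under 0.05, 3 of the 7 were higher and 1 lower. The lower one was Mup20, at means of 3224 and 2080 CPM, with overlapping groups and a log2 fold change of -0.63. DESeq2 called 3 higher and 0 lower, limma-voom called 2 higher and 0 lower, and the median log2 fold change of the list was 1.07. Of 9 genes known to be higher in female liver, only 1 had enough counts to be tested; it was called by neither edgeR, DESeq2 nor limma-voom, and 0 had an unadjusted p under 0.05.

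In whole liver, fewer cells of a type and less RNA per cell cannot be told apart, so marker lists of other cell types are given beside the Cyp2c values. Their counts at an unadjusted p under 0.05 and with DESeq2 again have no share of all genes beside them. Of 11 pericentral hepatocyte markers, 3 were called higher, Cyp2e1, Oat and Slc1a2, with log2 fold changes of 1.15, 1.49 and 1.37 (adjusted p = 0.0198, 0.0246 and 0.0246, edgeR). At an unadjusted p under 0.05, 7 of the 11 were higher and 0 lower, and DESeq2 called 7 higher and limma-voom 3. Glul, the defining pericentral gene, had 1216 to 1987 CPM with AAV8-GFP and 1869 to 2439 CPM with AAV8-AGXT. Its log2 fold change of 0.58 was not called by edgeR (adjusted p = 0.085). The 11 summed to 7958 to 9935 CPM with AAV8-GFP and 15900 to 20980 CPM with AAV8-AGXT, and most of this sum was Cyp2e1, at means of 5443 and 12050 CPM. Of 9 periportal markers, Cps1 and Arg1 were called higher by edgeR, and the list summed to 4903 to 7909 CPM against 8203 to 9312 CPM. At an unadjusted p under 0.05, 4 of the 9 were higher and 1 lower, and DESeq2 called 2 higher and limma-voom 2. The medians of both lists were similar, at log2 fold changes of 0.58 and 0.55.

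Of 7 hepatocyte markers, 0 were called by edgeR, 2 were higher at an unadjusted p under 0.05, DESeq2 called 1 higher and limma-voom 0, and their sum was 62170 to 72020 CPM with AAV8-GFP and 73000 to 101800 CPM with AAV8-AGXT. Of 8 stellate cell and fibroblast markers, Acta2 was called lower by edgeR, 6 had an unadjusted p under 0.05, DESeq2 called 2 lower and limma-voom 0, and the list summed to 528 to 935 CPM against 214 to 588 CPM. Of 6 cholangiocyte markers, 0 were called by edgeR, 5 had an unadjusted p under 0.05, DESeq2 called 4 lower and limma-voom 0, and they summed to 225 to 675 CPM against 74.2 to 273.5 CPM. The 10 macrophage and leukocyte markers summed to 443 to 710 CPM against 227 to 769 CPM, with 0 called by edgeR or limma-voom. Their directions were mixed, with 3 lower and 1 higher at an unadjusted p under 0.05, and 3 called lower and 1 higher by DESeq2. Of 5 endothelial markers, 0 were called by edgeR, DESeq2 or limma-voom and 0 had an unadjusted p under 0.05, with sums of 110 to 164 against 113 to 215 CPM. Of 4 T and NK cell markers, 0 were called by edgeR, 2 were lower at an unadjusted p under 0.05, DESeq2 called 2 lower and limma-voom 0, with sums of 6.90 to 13.5 against 2.41 to 8.002 CPM. No marker list was at 0 in either group, and the part of these cell types in the Cyp2c values was not tested.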

How the data were processed

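Liver RNA of 8 mice was sequenced as stranded mRNA libraries in read pairs. The authors trimmed with Trimmomatic 0.35, aligned with HISAT2 2.1.0.13 to GRCm38 and counted with HTSeq-counts. The deposited values are raw counts per Ensembl gene, with no normalization. The strand setting and overlap mode are not given in the sources used here. Mice were grouped by treatment label, and none was left out. The tables also hold HTSeq's tallies of pairs counted on no gene, which stayed out of library sizes. The tally for pairs aligned at several places made up 17.4% to 23.4% of all tallied entries.

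In R 4.3.3, edgeR 4.0.16 (filterByExpr, TMM, quasi-likelihood test, treatment only) tested 15248 genes with Benjamini-Hochberg adjustment, calling genes at an adjusted p under 0.05. The common biological coefficient of variation was 23.3%. Counting error adds to this for scarce genes. Log2 fold changes used edgeR's prior count of 0.125, and log2 CPM a prior count of 2. Each standard error was the absolute log2 fold change without prior count, divided by the square root of the F statistic. Alternatives were the Wald test of DESeq2 1.42.0, limma-voom (limma 3.58.1), robust estimation, DESeq2 size factors, total counts, no low-count filter, at least 10 counts in every mouse, and each mouse left out. The DESeq2 fit was also run without the low-count filter of edgeR, so it differed from the main fit in more than the test. The fit was also run on simulated counts with known fold changes, and it did not recover all of the changed genes. Gene symbols and positions came from GENCODE M21 (GRCm38), which matched 52403 of 52636 genes. Coding sequences, not proteins as planned, were aligned with MAFFT 7.526, and words were counted in annotated transcripts, not in the genome as planned. Promoter windows came from RefSeq (GRCm38.p6). Only the 250 bases before each start were used.

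The members, gene lists and alternatives were chosen with earlier results of these data known. The genes named were the 10 members, other chromosome 19 Cyp2c genes, called neighbours, up to 4 called genes of each list by smallest p, defining markers where they bear on a result, and the nearest gene and member by deviation. Ephx1, Cyb5r3, Nr1i3, Cyp2b10, Gsta1, Abcb1a and Mup20 were named after their values were seen. Some genes that this rule covers are not reported here.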

Additional observations from a re-analysis of the deposited data

Results flagged for a closer look

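Cyp2c39 in AAV8-GFP mouse 314 stood apart from the other mice of its group, at 3.69 CPM against 1.91 to 2.20 CPM. The gap to the nearest mouse was 0.836 of the whole range of the group, above Dixon's 95% critical value for 4 mice. Of 22 groups of values checked, 1 was marked in this way, and chance marks about 1 in 20. The same mouse had the highest CPM of its group for Cyp2c38, Cyp2c68 and Cyp2c70, and the lowest for Cyp2c37, Cyp2c54, Cyp2c50 and Cyp2c67.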

How the results depend on the processing

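The number of the 10 Cyp2c genes called higher was 4 with TMM and edgeR, 6 with DESeq2, 5 with no low-count filter and 3 with total counts, and it ran from 0 to 4 with each mouse left out, the 0 being without mouse 311. The number called lower was 0, and 1 with DESeq2 and with total counts, and 0 to 1 with each mouse left out, Cyp2c55 without mouse 303. Of the other Cyp2c genes, 1 was called, with 2 under DESeq2 and under no low-count filter and 0 to 1 with each mouse left out. DESeq2 called 1 of the tested neighbours. Over all genes, 374 were higher and 290 lower with edgeR, and 1068 and 1034 with DESeq2, which was run without the low-count filter. With total counts 144 were higher and 841 lower, and the median log2 fold change of all tested genes moved from 0.02 to -0.22. With each mouse left out these counts ran from 2 to 380 and from 0 to 325, with the fewest without mouse 311, 11 higher and 4 lower without mouse 314, and 12 higher and 2 lower without mouse 319. Cyp2c37, Cyp2c50 and Cyp2c54 were called in all 7 other settings and in 7 of 8 fits with a mouse left out. The log2 ratio of the summed CPM was 0.99, 0.74 with total counts, and 0.85 to 1.09 with each mouse left out. Cyp2c38 turned to a log2 fold change of 0.039 without mouse 314, within a range of -0.21 to 0.039. The cause of these moves was not tested. No paired analysis was possible because the mouse numbers of the groups do not overlap. Low counts limit the values of Cyp2c55, Cyp2c40 and Cyp2c69.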
